A study of Homo sapiens with 2 samples.

Results

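Metallothioneins are small, cysteine-rich proteins that bind zinc and copper, buffer these metals inside the cell and also bind toxic metals such as cadmium. The genes examined here were the 6 metallothionein genes MT1E, MT1F, MT1G, MT1M, MT1X and MT2A, together with MTF1, which encodes the zinc-sensing transcription factor of the pathway, and SLC30A1, which encodes the zinc exporter of the plasma membrane. They were found by gene name, which matched 8 of the 59125 rows of the count tables, each name in 1 row. The set was put together with the values of MT1E in these libraries already known, so the counts of its members are a description and were given no test.

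The study compared RNA from the human lung adenocarcinoma line H1944, an established cell line, after introduction of a control short hairpin RNA (shCON) or of a short hairpin RNA that silences USP12 (shUSP12). The USP12 protein is a deubiquitinase and takes ubiquitin off other proteins. Apart from the hairpin, the labels gave both samples the same line, tissue and RNA preparation, and no dose, time or metal treatment was given. Each group held 1 library, so no difference has a replicate check, no p-value was computed, and every comparison is of these 2 libraries.

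In the zinc response as it is generally known, free zinc binds MTF1, which moves to the nucleus and binds short DNA motifs called metal response elements in front of its target genes. Metallothionein genes and SLC30A1 are classical targets, so that excess zinc is both bound and pumped out. In humans, the functional metallothionein genes lie side by side on chromosome 16, and glucocorticoids and oxidative stress are further known inducers of several of them. The comparison asked whether MT1E stood alone in differing between the libraries or whether the rest of the cluster, MTF1 and SLC30A1 differed with it.

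Because the metallothionein genes are near copies of each other, their coding sequences are shown first, for MT1E, MT2A and MT1F. They were read from the GENCODE release 44 transcripts on GRCh38, and every one of them is 186 bases long. Capitals mark bases that differ from MT1E at the same position:
MT1E: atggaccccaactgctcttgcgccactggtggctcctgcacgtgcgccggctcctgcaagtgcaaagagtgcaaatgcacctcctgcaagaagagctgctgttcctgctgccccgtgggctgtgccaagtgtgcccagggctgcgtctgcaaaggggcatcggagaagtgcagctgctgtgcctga
MT2A: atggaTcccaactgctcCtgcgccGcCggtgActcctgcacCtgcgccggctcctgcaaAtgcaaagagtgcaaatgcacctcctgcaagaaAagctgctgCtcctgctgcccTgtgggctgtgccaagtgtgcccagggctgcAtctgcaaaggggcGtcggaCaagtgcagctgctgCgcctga
MT1F: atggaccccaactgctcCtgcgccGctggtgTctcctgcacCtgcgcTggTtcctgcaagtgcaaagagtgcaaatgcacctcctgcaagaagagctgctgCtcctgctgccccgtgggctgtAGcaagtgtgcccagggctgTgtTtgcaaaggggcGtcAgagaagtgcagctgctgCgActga
MT2A differed from MT1E at 14 bases (92.5% identity) and MT1F at 15 (91.9%). Of the 50-base words of the 704-base MT1E transcript, 5.34% also occurred in transcripts of other genes, and none of its 100-base words did. The share of 50-base words was 6.12% for MT1F, 11.1% for MT2A, 14.6% for MT1M, 19.9% for MT1G and 51.0% for MT1X, and MT1X also shared 22.0% of its 100-base words. Reads that match several genes equally well can be lost or split in counting, so the MT1X and MT1G counts are the least certain, whereas most of the MT1E, MT1F and MT2A sequence was their own. The long non-coding gene AC026461.1, which shares its start and strand with MT1X, had 0 counts in both libraries, as did the pseudogenes MT1P3 and MT2P1, which share words with MT1E. These counts of 0 cannot show whether reads of MT1X or MT1E were lost, because shared reads can be left out of every gene they match. Read length was not given in the sources used here.

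Total counts were 18249112 in shCON and 17475359 in shUSP12. Levels are given as CPM, the counts scaled to 1000000 per library, after scaling by trimmed mean of M values (TMM), with 95% exact binomial intervals. These intervals hold counting error alone, because a single library stood for each group. The reads also carried no molecular identifiers and so are not independent molecules, which can make even these intervals too narrow. A count of 0 allows up to 3 counts, which is 0.172 CPM in shCON and 0.164 CPM in shUSP12. USP12 itself had 711 counts in shCON and 219 in shUSP12, or 40.8 CPM (37.8 to 43.9) and 11.97 CPM (10.4 to 13.7), so the targeted transcript was lower in the library labelled as its knockdown. The labels do not say which USP12 hairpin was used, and the column of control counts was headed SHRFP although the control hairpin of the methods targets GFP.

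The libraries also differed in many rows outside the set of 8 genes. A set of 119 rows with 3 or fewer counts in shCON held 50 or more counts in shUSP12, and 1 row showed the opposite. Of the 119 rows, 47 were at 0 in shCON, 5 lay on chromosome 16 and 7 on chromosome Y, and MT1E had the 4th highest level among them. Epithelial and lung markers reached more than 3 counts for 7 of 10 genes in shCON and 8 of 10 in shUSP12, with summed levels of 7145 and 6094 CPM. Within that list EPCAM had 115 and 1566 counts in shCON and shUSP12, KRT19 had 32 and 4452, and NKX2-1 had 0 and 312, all higher in shUSP12. The keratins with many counts did not share 1 direction, with 85596 and 62180 for KRT8, 24132 and 18096 for KRT18, and 13626 and 22378 for KRT7, and the surfactant gene SFTPB was at 0 in both libraries. Fibroblast markers summed to 191.3 CPM in shCON and 124.7 CPM in shUSP12, with more than 3 counts for 6 of 7 genes in each. The lower sum came from COL1A1, with 1911 and 462 counts, whereas LUM had 788 and 1103 and DCN 481 and 597. Leukocyte markers summed to 1.20 and 2.24 CPM and endothelial markers to 0.803 and 3.01 CPM, and CD3E and CD68 were at 0 in both libraries. Both libraries were labelled H1944, but whether they came from the same stock of cells was not given and was not tested, and every value of shUSP12 over shCON holds only as a comparison of these libraries. The part of these differences in the metallothionein values was not tested, and with 1 library per group the hairpin and the library cannot be told apart.

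MT2A was the most abundant metallothionein transcript in both libraries. MT2A (ENSG00000125148, chr16:56608584-56609497, plus strand) had 2027 counts in shCON and 6311 in shUSP12, or 116.3 CPM (111.3 to 121.5) and 344.9 CPM (336.5 to 353.5). The level was 2.97 times as high in shUSP12 (95% interval 2.82 to 3.12), a log2 ratio of shUSP12 over shCON of 1.57. The 2 intervals of the level were far apart, so counting error alone does not span the difference. In bulk RNA, more cells with the transcript and more transcript per cell cannot be told apart, which holds for all genes described here.

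MT1E was detected in shUSP12 and had no counts in shCON. MT1E (ENSG00000169715, chr16:56625475-56627112, plus strand), one of the inducible isoforms, had 0 counts in shCON and 810 in shUSP12, where its level was 44.3 CPM (41.3 to 47.4). Measured against the 3 counts that a 0 allows, it was at least 257-fold higher in shUSP12, and the lower end of the exact 95% interval of the ratio, which lets a 0 reach 0.212 CPM, was 208.7. Only 2 of the 14612 rows whose mean reached 1 CPM had a higher log2 ratio. MT1E thus went from undetected to the second most counted metallothionein, a pattern that no other gene of the set showed at such a level.

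The counts of 3 further isoforms were also higher in shUSP12, at lower levels than MT2A and MT1E. MT1F (ENSG00000198417, chr16:56657731-56660698, plus strand) had 75 counts in shCON and 233 in shUSP12, or 4.30 CPM (3.38 to 5.39) and 12.7 CPM (11.2 to 14.5), and its log2 ratio was 1.54 (1.18 to 1.96). MT1G (ENSG00000125144, chr16:56666730-56668065, minus strand) had 1 count in shCON and 36 in shUSP12, a ratio of 34.3 with a counting interval of 5.77 to 1392. MT1X (ENSG00000187193, chr16:56682470-56684196, plus strand) had 2 counts in shCON and 32 in shUSP12, a ratio of 15.2 (3.89 to 131). MT1F therefore differed by nearly the same factor as MT2A, with overlapping intervals. The ratios of MT1G and MT1X rest on 1 and 2 counts in shCON and on genes picked from this same contrast. They were therefore not ranked against that of MT2A. MT1M (ENSG00000205364, chr16:56632659-56633981, plus strand) was at 0 counts in both libraries, so no fold can be given for it and its presence below 3 counts was not detectable at this depth.

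**Figure D1:**
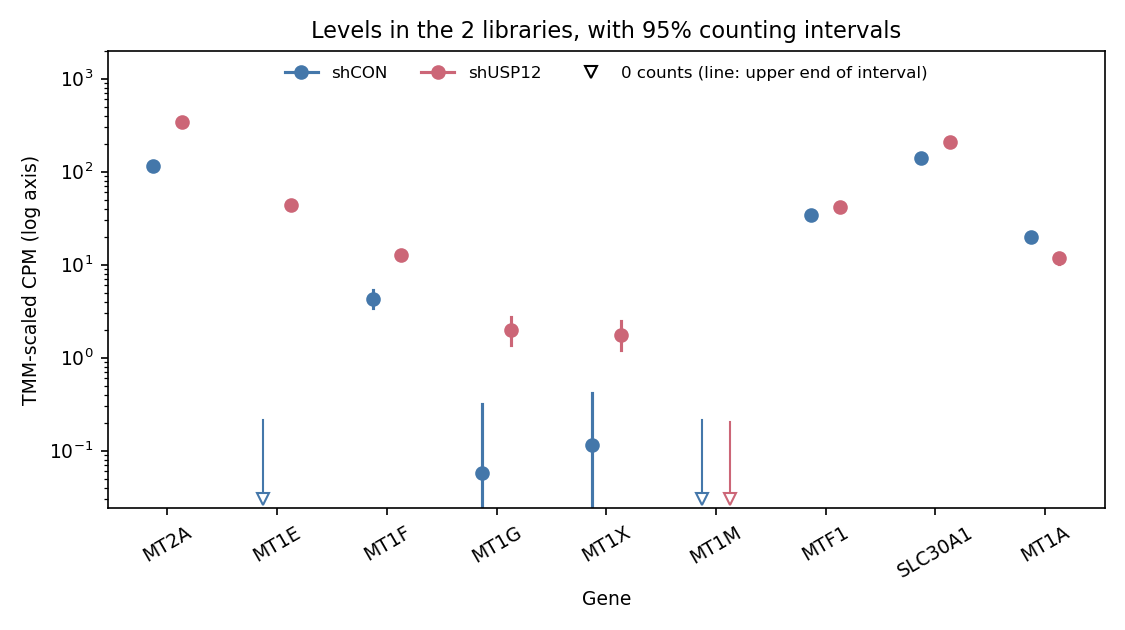
TMM-scaled CPM on a log axis for the 8 genes and MT1A in shCON (blue) and shUSP12 (red), 1 library each; vertical lines are 95% counting intervals (cut at the lower edge of the axis for MT1G and MT1X in shCON) and open triangles mark 0 counts. MT2A goes from 116.3 to 344.9 CPM and MT1E from 0 counts to 44.3 CPM, MT1M is at 0 counts in both, and MT1A is the metallothionein with the lower level in shUSP12.

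The metal sensor and the exporter differed less. MTF1 (ENSG00000188786, chr1:37809574-37859592, minus strand) had 601 counts in shCON and 769 in shUSP12, or 34.5 CPM (31.8 to 37.4) and 42.0 CPM (39.1 to 45.1). Its log2 ratio of 0.28 (0.13 to 0.44) lay under the 2-fold threshold used here, a log2 ratio of 1. SLC30A1 (ENSG00000170385, chr1:211571568-211579161, minus strand) had 2451 counts in shCON and 3818 in shUSP12, or 140.6 CPM (135.1 to 146.3) and 208.7 CPM (202.1 to 215.4). Its log2 ratio of 0.57 (0.50 to 0.64) also lay under the threshold, with a ratio interval of 1.41 to 1.56. Both genes were above the median log2 ratio of all rows, −0.01, yet 3433 rows had a higher log2 ratio than MTF1 and 1808 a higher one than SLC30A1. The 4 members with more than 3 counts in both libraries thus came in an order of the ratio, with MTF1 lowest at 1.22 (1.09 to 1.36), then SLC30A1 at 1.48, and MT1F at 2.96 beside MT2A at 2.97.

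Of the 8 genes, 6 reached a mean of 1 CPM, the filter on low rows, and 4 of these 6 (MT1E, MT1F, MT1G and MT2A) were at least 2-fold higher in shUSP12, with 0 lower. Among all 14612 rows with such a mean, 6.48% were higher in shUSP12 by 2-fold or more and 3.01% were lower by as much. MT1E and MT1G passed the filter through shUSP12 alone and so had to differ. MT1G lay just inside the filter with a mean of 1.01 CPM and MT1X just outside it with 0.932 CPM. The median log2 ratio of the 6 genes was 1.56, against −0.01 for all rows, and the set was chosen from this same contrast.

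The share of rows that were higher depended on the level. It was 17.5% among rows with a mean of 1 to 2 CPM, where MT1G lies, and 6.49% at 5 to 20 CPM, where MT1F lies. From 20 to 100 CPM it was 1.95%, the range of MT1E and MTF1. At 100 CPM and above, where MT2A and SLC30A1 lie, 19 of 2114 rows or 0.899% were at least 2-fold higher, and MT2A was one of them. MT2A was thus among few abundant transcripts of that kind, whereas a difference past 2-fold was more frequent among rows as low as MT1G.

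**Figure D2:**
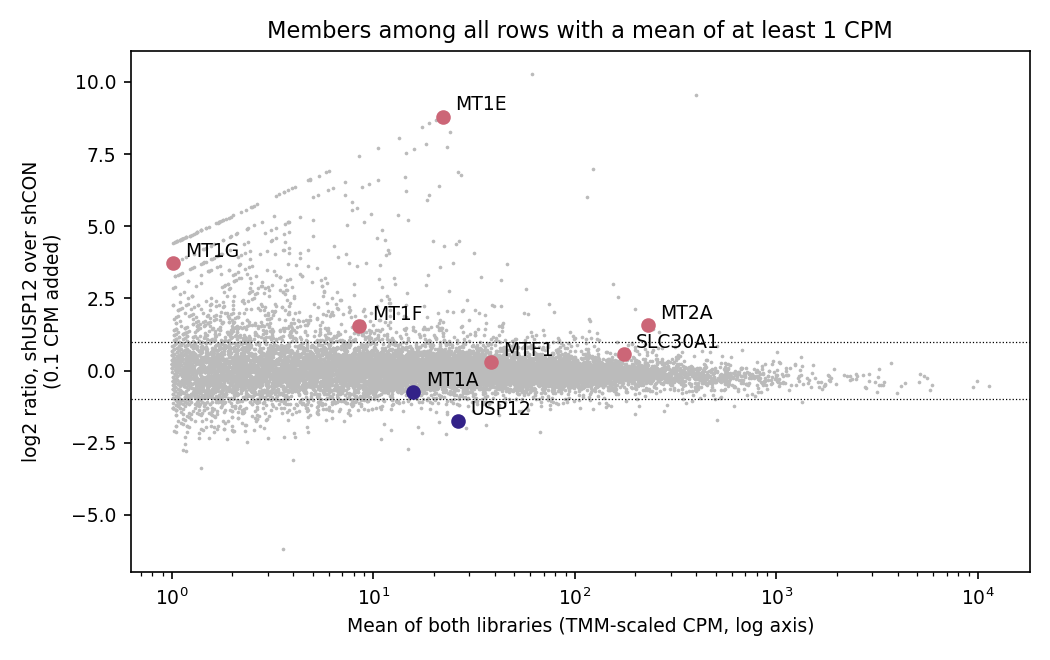
The log2 ratio of shUSP12 over shCON (0.1 CPM added to each value) against the mean TMM-scaled CPM on a log axis for the 14612 rows that reached a mean of 1 CPM (grey), with the members (red), MT1A and USP12 (dark blue) named; dotted lines mark 2-fold. MT2A lies above the band of rows of like level, MTF1 and SLC30A1 lie between the dotted lines, and MT1E has the 3rd highest log2 ratio.

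Not every metallothionein locus was higher in shUSP12. MT1A (ENSG00000205362, chr16:56638666-56640087, plus strand), which encodes another isoform and lies between MT1E and MT1F, had 346 counts in shCON and 214 in shUSP12, or 19.9 CPM (17.8 to 22.1) and 11.7 CPM (10.2 to 13.4). Its log2 ratio was −0.76 (−1.02 to −0.51), under the 2-fold threshold, and its interval did not reach 0. MT1A had more counts than any metallothionein other than MT2A in shCON, and fewer than MT1E and MT1F in shUSP12.

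The remaining loci of the cluster were close to undetected. MT1H had 0 counts in shCON and 4 in shUSP12, MT3, the form known from brain, had 1 and 0, and the pseudogenes MT1L and MT1DP had 0 and 1, and 5 and 4. MT1B, MT4, MT1JP and MT1CP on chromosome 16 and MT1HL1 and MT1XP1 on chromosome 1 were at 0 in both libraries, and so was MT1IP, which was matched by gene identifier only. In chromosome order from MT2A to MT1X, a stretch of 73.9 kb between their start coordinates, detected and undetected genes therefore alternated, with MT1M at 0 only 24.1 kb and MT1E at 810 counts only 16.9 kb from the start of MT2A.

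**Figure D3:**
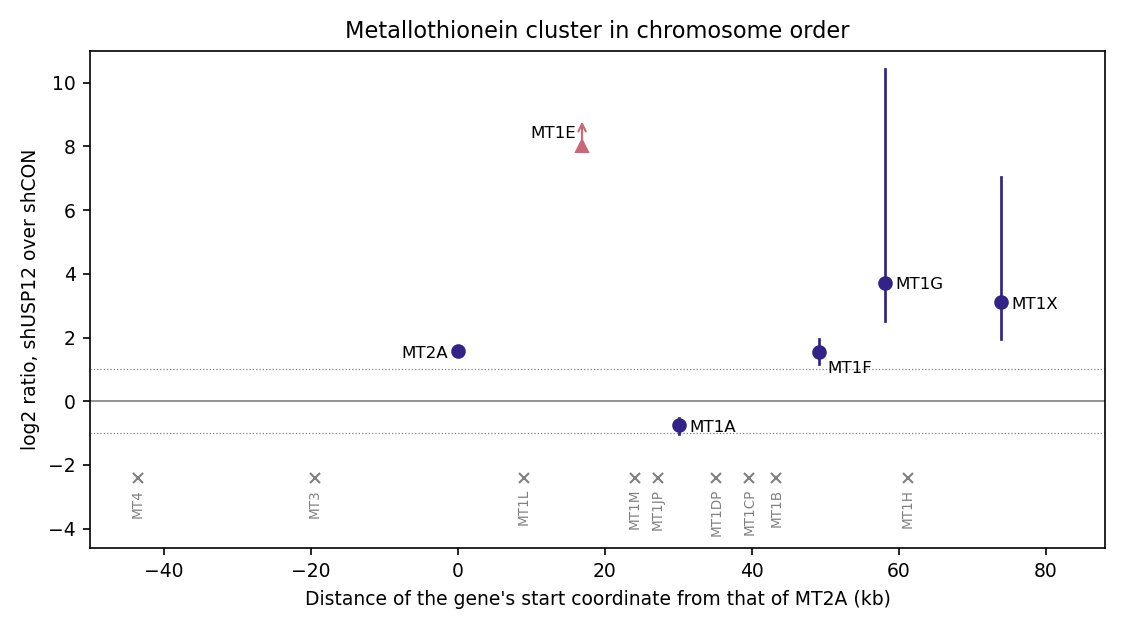
The log2 ratio of shUSP12 over shCON for each metallothionein locus of chromosome 16 against the distance of its start coordinate from that of MT2A in kb; vertical lines are 95% counting intervals, the triangle with an arrow is the lower bound for MT1E, dotted lines mark 2-fold, and grey crosses are loci with 9 or fewer counts over both libraries, drawn at an arbitrary height. MT2A, MT1E, MT1F, MT1G and MT1X lie above the upper dotted line, and MT1A, inside the cluster, lies below 0.

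Genes next to the cluster were used to see whether the whole stretch of the chromosome differed. Of 13 listed neighbours, 9 had a mean of at least 1 CPM, and 0 of these were at least 2-fold higher or lower. The shares over all such rows were also small, 6.48% higher and 3.01% lower. Their log2 ratios ranged from −0.43 (CPNE2) to 0.49 (RSPRY1), with a median of 0.30. On the MT2A side, BBS2, a gene of the cilium, had 384 counts in shCON and 529 in shUSP12 (log2 ratio 0.39), OGFOD1 had 604 and 780 (0.30) and NUDT21 had 1360 and 1785 (0.32). On the MT1X side, NUP93, which encodes a nuclear pore protein, had 1678 and 1585 counts (−0.15) and HERPUD1, a gene of the endoplasmic reticulum stress response, had 1083 and 1334 (0.23). The neighbours on the MT2A side lay slightly above the median of all rows, but none was near the log2 ratio of 1.57 of MT2A.

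Summed over 17 metallothionein loci matched by name, there were 2457 counts in shCON and 7645 in shUSP12, or 140.96 CPM (135.4 to 146.7) and 417.8 CPM (408.5 to 427.3). The summed level was 2.96 times as high in shUSP12, a log2 ratio of 1.57. The number of loci with more than 3 counts was 4 in shCON and 8 in shUSP12. These include MT1DP with 5 and 4 counts and, in shUSP12, MT1H with 4, so the numbers rest partly on counts just past that bound. Over all rows, 18594 in shCON and 19539 in shUSP12 had more than 3 counts. The net difference of 276.9 CPM was made up mostly of MT2A, which gave 228.6 CPM or 82.6% of it, while MT1E gave 44.3 CPM or 15.99% and MT1F gave 8.43 CPM or 3.05%. MT1A took −8.15 CPM from the sum. The transcript with the highest ratio was therefore not the one that added most metallothionein RNA.

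The make-up of these counts differed between the libraries mainly in MT1A and MT1E. MT2A gave 82.5% (80.9 to 84.0) of the metallothionein counts in shCON and 82.6% (81.7 to 83.4) in shUSP12, and MT1F gave 3.05% in each. MT1A gave 14.1% (12.7 to 15.5) in shCON and 2.80% (2.44 to 3.19) in shUSP12, and MT1E gave 0 and 10.6% (9.91 to 11.3). The shares of MT2A and MT1F overlapped between the libraries within their intervals, and the second isoform by counts was MT1A in shCON and MT1E in shUSP12. MT1G gave 0.0407% (0.00103 to 0.227) in shCON and 0.471% (0.330 to 0.651) in shUSP12, and MT1X gave 0.0814% (0.00986 to 0.294) and 0.419% (0.286 to 0.590). The intervals of MT1X overlapped and those of MT1G did not, but MT1G passed the filter through shUSP12 alone and so had to differ.

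**Figure D4:**
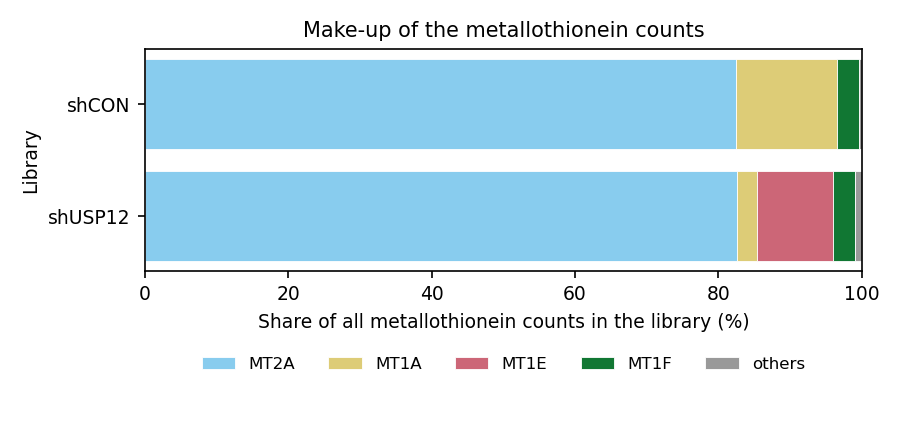
Share of all metallothionein counts in percent for shCON and shUSP12, 1 library each, split into MT2A, MT1A, MT1E, MT1F and the other loci. MT2A takes 82.5% and 82.6%, MT1A takes 14.1% in shCON and 2.80% in shUSP12, and MT1E appears with 10.6% in shUSP12.

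Levels of different genes were compared per kilobase of transcript. In shCON, MT2A was highest with 290.0 CPM per kb, followed by MT1A with 50.1, SLC30A1 with 23.9, MT1F with 10.1 and MTF1 with 4.34 CPM per kb. MT1X and MT1G followed with 0.284 and 0.140 CPM per kb, from 2 counts and 1 count, and cannot be ordered at that depth. In shUSP12, MT2A had 860.2 CPM per kb, and MT1E had 133 CPM per kb if its 332-base transcript is taken and 59.3 CPM per kb with the 746-base transcript. MT1E was second to MT2A under either length. SLC30A1 had 35.4 CPM per kb there, MT1F 29.96 and MT1A 29.5, of which MT1F and MT1A did not differ beyond counting error. MTF1 with 5.30, MT1G with 4.80 and MT1X with 4.33 CPM per kb came last and were likewise close to each other.

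Metal response elements were then searched in the promoters, because they are the motif that MTF1 binds. RefSeq promoter windows of GRCh38.p14, 250 bases upstream of the gene start, were matched for 4 of the 8 genes (MT1X, MT2A, MTF1 and SLC30A1). MT1E, MT1F, MT1G and MT1M were not matched. The letters searched were TGCACNC and TGCGCNC on both strands. The 150 bases before the gene start are shown 5′ to 3′ on the strand of the gene, with the matches in capitals:
MT2A (chr16:56608434-56608583, plus strand): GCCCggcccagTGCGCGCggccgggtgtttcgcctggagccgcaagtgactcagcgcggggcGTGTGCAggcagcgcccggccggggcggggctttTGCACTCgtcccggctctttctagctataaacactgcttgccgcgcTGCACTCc
MT1X (chr16:56682320-56682469, plus strand): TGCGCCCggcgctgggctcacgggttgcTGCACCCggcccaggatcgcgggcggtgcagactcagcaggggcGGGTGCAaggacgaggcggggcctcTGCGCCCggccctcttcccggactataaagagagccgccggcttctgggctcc
SLC30A1 (chr1:211579162-211579311, minus strand): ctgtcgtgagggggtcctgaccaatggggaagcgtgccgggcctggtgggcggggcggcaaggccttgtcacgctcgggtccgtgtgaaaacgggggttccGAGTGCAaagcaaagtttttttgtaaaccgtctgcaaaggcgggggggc
The capitals at the first bases of MT2A are the end of a match that begins outside the stretch shown. Within 250 bases there were 7 matches for MT2A, 4 for MT1X, 1 for SLC30A1 and 0 for MTF1, and MT1H, which was nearly undetected, had 8. Of 35116 RefSeq promoters of the same length, 24.8% held at least 1 match, 0.370% at least 4, 0.0313% at least 7 and 0.0171% at least 8. The windows of MT2A and MT1X were therefore rich in these letters and that of SLC30A1 was not unusual, and the number of matches did not follow the level, since MT1H with most matches had 4 counts in shUSP12 and MT2A had 6311. The antioxidant response letters TGACNNNGC occurred once each in the windows of MT2A, MT1X and SLC30A1, and in 10.9% of all promoters, with no overlap with the metal response matches. A TATAAA stretch began 29 bases before the start of MT2A and 30 bases before that of MT1X, and was found in 6.80% of promoters. A match is a description of the letters and not evidence of binding.

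The other zinc transporters were listed to set SLC30A1 among them. Of 10 exporters of the ZnT family (SLC30A), which move zinc out of the cytosol, 6 had a mean of at least 1 CPM, and 0 were at least 2-fold higher or lower, with a median log2 ratio of 0.25. SLC30A1 had the highest log2 ratio among these 6, at 0.57. Values of 3 further exporters, chosen for mention after they had been seen, were 0.46 for SLC30A7, which loads the secretory pathway, 0.45 for SLC30A9 and −0.96 for SLC30A8, the transporter known from insulin granules, which had 46 counts in shCON and 24 in shUSP12. Apart from SLC30A1 itself, SLC30A8 had a log2 ratio larger in size than that of SLC30A1, and the rest of the 6 had smaller ones. Of the 6, 4 had a log2 ratio above 0 and 2 below. The 2 were SLC30A8 and SLC30A5, which had 685 and 682 counts and a log2 ratio of −0.08. A count of 0 past 2-fold among 6 is not far from the shares over all rows, 6.48% higher and 3.01% lower.

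Of 14 importers of the ZIP family (SLC39A), 11 had a mean of at least 1 CPM, 1 was at least 2-fold higher, 0 were lower and the median log2 ratio was −0.15. SLC39A4, which encodes the importer known for zinc uptake in the intestine, had 567 counts in shCON and 1273 in shUSP12, a log2 ratio of 1.09 (0.95 to 1.24). SLC39A14, which carries zinc as well as iron and manganese, had the most counts of the family, 3571 and 3565, and a log2 ratio of −0.07. SLC39A4 was the single zinc transporter past 2-fold among those that reached a mean of 1 CPM, and its interval reached below that threshold. A count of 1 higher among 11 is not far from the 6.48% of all rows that were higher by as much. Below that mean, SLC30A4 had 6 counts in shCON and 21 in shUSP12, SLC30A3 had 12 and 3, and SLC30A10 had 0 and 8.

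**Figure D5:**
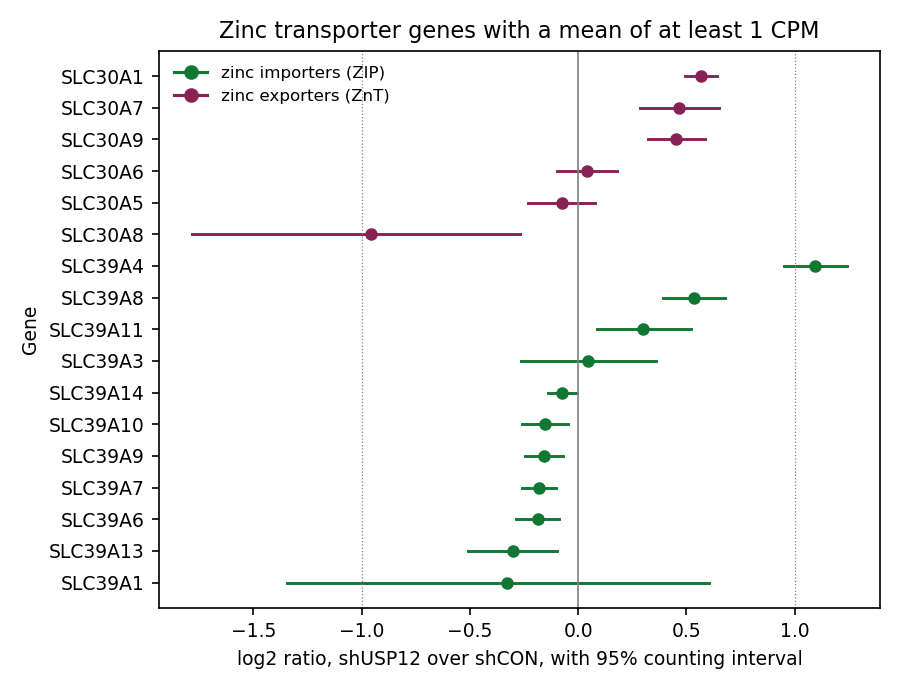
The log2 ratio of shUSP12 over shCON with 95% counting intervals for 6 zinc exporters (purple) and 11 zinc importers (green) with a mean of at least 1 CPM; dotted lines mark 2-fold. SLC39A4 at 1.09 is the transporter to the right of the upper dotted line, and SLC30A1 at 0.57 heads the exporters.

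Metallothionein genes also respond to glucocorticoids, oxidative stress and heat or proteotoxic stress, and lists of genes known for these responses were counted beside them. Of 9 glucocorticoid target genes with a mean of at least 1 CPM, 2 were at least 2-fold higher and 0 lower. Over all rows with such a mean, 6.48% were higher and 3.01% lower by as much. The median log2 ratio of the 9 genes was −0.04 (0.09 with scaling to total counts alone). TSC22D3, which encodes the glucocorticoid-induced leucine zipper protein, had 185 counts in shCON and 831 in shUSP12 (log2 ratio 2.09, 1.87 to 2.34), and KLF9, a transcription factor, had 29 and 210 (2.71, 2.22 to 3.40). DUSP1, a phosphatase of stress kinases with the most counts of this list, had 5545 and 4544 (−0.36). The list was therefore split, with a pair of genes well above 2-fold and a median near that of all rows.

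Of 15 genes of oxidative stress and glutathione, all with a mean of at least 1 CPM, 0 were at least 2-fold higher and 1 was lower. Of these genes, 14 had a log2 ratio below 0, with a median of −0.24 (−0.10 with scaling to total counts alone). Among all 14612 rows with such a mean, 7461 had a log2 ratio below 0 and 3.01% were at least 2-fold lower. GCLM, the modifier subunit of the enzyme that starts glutathione synthesis, had 5127 counts in shCON and 1891 in shUSP12, a log2 ratio of −1.51 (−1.59 to −1.43). TXNRD1, thioredoxin reductase, had the most counts, 69495 and 50982, and a log2 ratio of −0.52. Of 15 heat shock and metal stress genes, 0 were at least 2-fold higher or lower, and their median was 0.10. HSPA8, a chaperone made at all times, had the most counts of these, 45115 and 43965, with a log2 ratio of −0.11. A count of 0 higher among 15 is not far from the share over all rows, 6.48%, or 0.899% at 100 CPM and above. Whether these stresses had a part in the metallothionein values was not tested.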

How the data were processed

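RNA sequencing of 1 shCON and 1 shUSP12 library of H1944 cells was analysed. The authors prepared stranded libraries, mapped reads to GRCh38 with HISAT2 2.0.4 and deposited whole-number counts per gene without normalisation. For the counting, the methods name StringTie with unique fragments, whereas the submitters' processing notes list HTSeq 0.6.0, and for trimming Seqtk and Trimmomatic, so the steps are not certain, nor is the strand setting. The annotation release was not given in the sources used here. Spilled annotation text without a count filled 91 lines per table, which were left out.

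CPM values were computed with TMM factors (0.955 for shCON, 1.05 for shUSP12) from edgeR 4.0.16 in R 4.3.3. The log2 ratio was taken after adding 0.1 CPM, which understates low genes, and rows whose mean reached 1 CPM were counted against a 2-fold threshold. With 1 library per group no count model could be tested. Intervals are 95% exact Clopper-Pearson intervals without the added 0.1 CPM, and levels of 0 were bounded at 3 counts. The members and lists were chosen with earlier results of these data known. All members and the loci with a count are named, and from each list the genes past 2-fold (at most 4) and the one with most counts; other names were chosen after their values were seen. Annotation and sequences came from GENCODE release 44, which held 99.1% of the Ensembl identifiers, and from RefSeq. Python 3.11.15, NumPy 2.4.6, pandas 2.3.3, SciPy 1.17.1, Matplotlib 3.10.9 and Biopython 1.88 were used, and the steps were tested on simulated counts. Alternatives were other scalings (total counts, DESeq2 1.42.0 size factors), pseudocounts, filters and thresholds. Restrictions to rows counted more than 3 times in each library and to protein-coding genes were added after seeing the data.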

Additional observations from a re-analysis of the deposited data

How the results depend on the processing

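No metallothionein, MTF1 or SLC30A1 value changed direction under the alternatives run. Total counts as the scaling moved the median of all rows by 0.13 on the log2 scale and gave 282 for the MT1E bound, 1.70 for MT2A, 0.70 for SLC30A1 and 291 rows at least 2-fold lower, so that 79.6% of all calls were higher instead of 68.3%. With a 4-fold threshold, 2 of the 8 genes counted as higher (MT1E and MT1G), with 416 rows higher and 38 lower. Requiring more than 3 counts in both libraries, an alternative added after seeing the data, also left 2 (MT1F and MT2A). A 1.5-fold threshold gave 1744 rows higher and 1331 lower, and a mean of at least 5 CPM gave 361 and 168 and left 3 of the 8 genes higher, without MT1G. Without a filter there were 3993 and 2447, 5 of the 8 genes were higher, MT1X included, and 7 genes of the other lists were higher and 3 lower, against 4 and 1. A pseudocount of 1 CPM gave 214 rows lower, and one of 0.01 CPM gave 2 list genes lower, by adding SLC30A8. The other values moved by less than their counting interval or, for counts of genes, by less than 1.5 times, the widest being 722 and 1137 rows higher against 947 and 308 rows lower against 440. No paired analysis was possible because a single library stood for each group. Variation between cultures is unknown without replicates, and the origin of the 119 rows near 0 in shCON was not tested. Depth limits MT1G, MT1X and MT1M, and shared sequence limits MT1X.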

Other observations

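Copper and iron handling genes were counted beside the zinc genes. Of 10 copper genes with a mean of at least 1 CPM, 0 were at least 2-fold higher or lower, and the median log2 ratio was 0.05. SOD1, the copper and zinc superoxide dismutase, had the most counts, 4118 in shCON and 3524 in shUSP12, with a log2 ratio of −0.29. Of 11 iron genes, 1 was at least 2-fold higher and 0 lower, with a median of 0.10. The counts of both lists were not far from the shares over all rows, 6.48% higher and 3.01% lower. SLC40A1, which encodes the iron exporter ferroportin, had 260 counts in shCON and 548 in shUSP12, a ratio of 2.01 that fell short of 2-fold with a pseudocount of 1 CPM. FTL, the ferritin light chain, had the most counts, 124371 and 80874, and a log2 ratio of −0.69.

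The named rows most like MT1E, those with at most 3 counts in shCON and the nearest level in shUSP12, Y-linked rows left out, were CDH11, KLK6, CDKN2A and MAEL. CDH11, a cadherin gene that is also on chromosome 16 but at 64943753 to 65126112, had 2 counts in shCON and 846 in shUSP12, 1.04 times the MT1E level there. KLK6, a secreted protease gene, had 1 and 877 (1.08 times), CDKN2A, a cell cycle inhibitor gene, had 0 and 694 (0.857 times), and MAEL, a germline gene, had 1 and 668 (0.825 times). These patterns rest on 2 libraries, and 4 of the 119 rows of that kind are named here.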
